A study of Rattus norvegicus with 70 samples.

Results

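The libraries described here are the 23 brown adipose tissue (BAT) libraries, of 24 in the series, whose level of Ckm set them apart as rich or poor in skeletal muscle RNA. Ckm encodes the creatine kinase of striated muscle. The libraries were chosen by this level alone, given in CPM, the usual scale on which a count is set against the total count of its library. Libraries with at least 1000 CPM formed the high class (17 libraries) and those under 300 CPM the low class (6 libraries). One library lay between these limits and was left out of the comparison. The whole series holds 70 libraries, with 23 from subcutaneous (SAT) and 23 from visceral adipose tissue (VAT).

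All libraries came from Sprague-Dawley rats, an outbred laboratory stock, with 24 numbers in the titles that run over 4 groups in BAT: female sham, female PCB 52, male sham and male PCB 52, with even numbers for females and odd numbers for males. PCB 52 is a chlorinated biphenyl, and the study asked what breathing it does to gene expression in fat. Rats reached the laboratory at 28 days of age, and males began exposure at 39 and females at 42 days of age, so that sex and starting age cannot be told apart. Exposure lasted 4 h daily over 28 days through the nose. The PCB 52 concentration reached is not given in the sources used here, nor is what the sham group breathed. Each library was made from a piece of about 100 mg of dissected tissue, and how muscle was separated from the fat is not given in the sources used here. In such bulk extracts, more muscle cells and more RNA per muscle cell cannot be told apart.

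Interscapular and other brown fat lies directly against muscles of the back and neck. Brown adipocytes burn fatty acids in mitochondria and release heat through the uncoupling protein UCP1. Skeletal muscle also holds many mitochondria and shares a set of metabolic genes with brown fat, while its contractile apparatus is its own. That apparatus comes in fast and slow forms: fast fibres use the myosin heavy chains Myh1, Myh2 and Myh4, slow fibres Myh7, and each form has its own light chains and troponins. Transcription of these genes is driven by the MyoD family, which binds E-boxes, together with MEF2 factors and serum response factor, which binds CArG boxes.

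The 250 bases before the start of 5 genes are shown because these genes span the patterns described below. Ckm (chr1:88189211-88189460, plus strand) chose the classes, Acta1 (chr19:68784195-68784444, minus strand) encodes skeletal actin and Myh4 (chr10:52421898-52422147, plus strand) encodes the fastest myosin. Cox6a2 (chr1:192219717-192219966, minus strand) encodes the muscle form of a cytochrome c oxidase subunit, and Slc25a4 (chr16:52805271-52805520, plus strand) the adenine nucleotide carrier of muscle mitochondria, which brown fat also expresses. Sequences and positions are those of RefSeq on the GRCr8 build. Capitals mark matches, on either strand, to the E-box CANNTG, of which CAGCTG is one form, to the MEF2 motif and to the CArG box.
Ckm: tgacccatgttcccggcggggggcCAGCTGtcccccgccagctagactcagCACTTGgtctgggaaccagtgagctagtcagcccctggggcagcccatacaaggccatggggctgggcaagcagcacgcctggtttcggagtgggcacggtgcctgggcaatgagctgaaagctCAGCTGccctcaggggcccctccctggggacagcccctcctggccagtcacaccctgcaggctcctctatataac
Acta1: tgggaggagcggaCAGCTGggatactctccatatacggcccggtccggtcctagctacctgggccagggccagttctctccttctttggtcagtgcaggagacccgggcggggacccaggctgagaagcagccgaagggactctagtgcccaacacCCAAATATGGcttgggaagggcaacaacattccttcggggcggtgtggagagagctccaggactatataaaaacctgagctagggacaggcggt
Myh4: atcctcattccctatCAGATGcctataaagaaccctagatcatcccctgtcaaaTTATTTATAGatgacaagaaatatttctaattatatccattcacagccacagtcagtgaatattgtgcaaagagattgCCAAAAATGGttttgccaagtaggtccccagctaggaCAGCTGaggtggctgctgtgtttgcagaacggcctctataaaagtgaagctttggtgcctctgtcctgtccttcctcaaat
Cox6a2: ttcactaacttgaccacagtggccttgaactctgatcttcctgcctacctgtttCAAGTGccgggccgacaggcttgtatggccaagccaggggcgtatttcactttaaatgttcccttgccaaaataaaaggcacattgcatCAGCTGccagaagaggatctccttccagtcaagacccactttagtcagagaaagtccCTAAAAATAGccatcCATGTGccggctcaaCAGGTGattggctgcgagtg
Slc25a4: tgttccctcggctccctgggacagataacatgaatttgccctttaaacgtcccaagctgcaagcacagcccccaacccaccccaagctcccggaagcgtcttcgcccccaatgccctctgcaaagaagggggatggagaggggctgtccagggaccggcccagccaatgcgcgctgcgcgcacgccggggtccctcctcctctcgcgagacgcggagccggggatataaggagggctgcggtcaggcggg
Ckm held 3 E-boxes, 2 of them CAGCTG, and Acta1 held 1 E-box and 1 CArG box. Myh4 held 2 E-boxes, 1 MEF2 motif and 1 CArG box. Cox6a2 held 4 E-boxes and 1 MEF2 motif, and none of these letters occurred in the window of Slc25a4. Among 57 genes, namely Ckm and the lists of contractile, sarcomere and excitation-contraction coupling genes, 42 had a promoter in the RefSeq table. The MEF2 motif occurred in 23.8% of these 42 windows and in 1.09% of the 9168 windows found for all genes tested. CANNTG occurred in 80.95% against 56.5%, CAGCTG in 38.1% against 12.6%, and the CArG box in 9.52% against 1.09%. A match of letters is a description and shows no binding.

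Total counts ran from 4604116 to 7813842 in the high class and from 4964012 to 6452879 in the low class, so that 3 counts, the limit that a count of 0 allows, stood for 0.384 to 0.652 CPM over the BAT libraries. Such floors cover counting error only. Mean totals differed by 230315 counts between classes (two-sided exact permutation test, 17 against 6 libraries, p = 0.592). Genes with at least 1 count numbered 12581 to 13088 in the high class and 12490 to 12889 in the low class (exact permutation test, p = 0.119). The high class held 9 sham and 8 PCB 52 libraries, and the low class 3 of each (two-sided Fisher's exact test, p = 1.0). It held 8 even-numbered and 9 odd-numbered libraries, against 4 and 2 in the low class (Fisher's exact test, p = 0.640). Nothing in the labels says how the animals of one group relate to each other, so p-values measure the spread between these libraries.

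Ckm spread over more than 2 orders of magnitude among extracts labelled as one tissue. In the low class it was 19.951, 44.279, 44.923, 51.669, 58.424 and 287.865 CPM, the last in female sham library 12. In the high class the lowest value was 1236 CPM (female sham library 8), the median 3055 CPM and the highest 7263 CPM (male sham library 5). The library left out, male PCB 52 library 19, stood at 697.7 CPM. Library 12 thus lay just inside the lower limit and library 8 just inside the upper one. These values chose the classes, so the difference between the classes in Ckm carries no test.

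**Figure D1:**
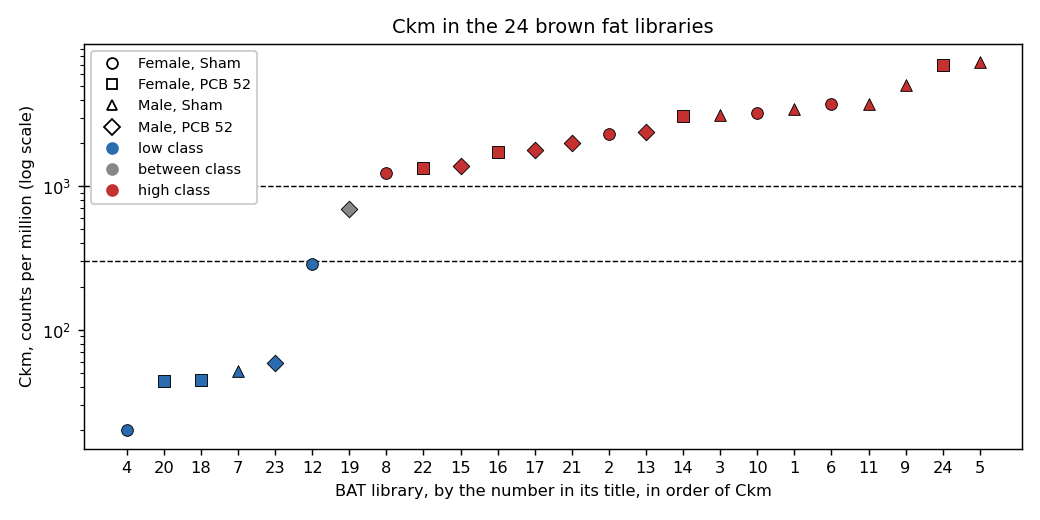
Ckm in CPM, on a log scale, in the 24 BAT libraries ordered by Ckm; colour gives the class, the symbol gives sex and treatment, and dashed lines mark 300 and 1000 CPM. Both sexes and both treatments occur among the 6 low and the 17 high libraries.

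The share of all counts on the 57 muscle genes named above was higher in the high class, as the choice of classes by Ckm, one of the 57, partly fixes. It ran from 0.0486% to 0.347% of counts in the low class and from 1.23% to 8.39% in the high class, with medians of 0.0876% and 2.84%. Without Ckm itself the other 56 genes took 0.0466% to 0.318% and 1.11% to 7.69%. Each of the 24 BAT libraries, the low class included, had counts of Ckm. The highest share belonged to female PCB 52 library 24. This library stands apart: Ucp1 was at 113.6 CPM there, against 4015 to 8204 CPM in the other 16 high libraries and 2892 to 9569 CPM in the low class. Its Cidea was at 57.0 CPM and its Lep at 378.1 CPM. Its Ucp1 and Cidea were the lowest of the BAT libraries. Its Ucp1 still exceeded that of every SAT library, at most 1.38 CPM. The count of calls over all genes and those for the gene lists whose count changed are also given without library 24.

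Genes higher in the high class were numerous and those lower were few. With even or odd number and treatment as terms, 348 of 11212 genes tested were called higher, which is 3.1% (edgeR quasi-likelihood test, adjusted p under 0.05, called for short), and 4 were called lower, which is 0.0357%. For 215 of all genes tested, which is 1.92%, every high library exceeded every low one, and for 0 genes (0.0%) the order was the opposite. The median log2 fold change over all genes was -0.03, and 41.9% of genes lay above 0. Because a gene measured in the same libraries sorted them, the calls show which genes follow Ckm and are no test of a condition. Without library 24 the counts were 329 higher and 7 lower, and 214 genes had every high library above every low one.

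The 348 genes were also fitted in each sex and treatment alone, where their direction was largely fixed because the same libraries had chosen them. Of the 348 genes, 340 were tested in even-numbered libraries alone and 346 in odd-numbered ones, 345 in sham alone and 343 in PCB 52 alone, and each of those tested had a log2 fold change above 0. Of them 180, 228, 215 and 164 were called higher in these smaller fits, in that order. A test of whether the high minus low difference itself differed between even and odd numbers called 0 of 11449 genes (edgeR quasi-likelihood interaction test, 0.0%), while 508 had an unadjusted p under 0.05. Without library 24 it called 0 of 11381, with 446 at an unadjusted p under 0.05.

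Fast-fibre contractile genes were all higher: 15 of 15 were called, with a median log2 fold change of 5.26. Myh4, the myosin heavy chain of the fastest fibres, was at 16.8 to 461.8 CPM in the low class (median 68.0 CPM) and at 1630 to 11210 CPM in the high class (median 4233 CPM). The classes did not overlap, and the log2 fold change was 5.29 (SE 0.655). Myl11 (gene 24584), the regulatory light chain of fast muscle also known as Mylpf, had means of 1178 ± 719.5 CPM (SD, n = 17) and 32.3 ± 37.5 CPM (n = 6). Tnnt3, fast troponin T, ran from 20.7 to 117.5 CPM in the low class and from 482.6 to 3375 CPM in the high class. Atp2a1, the calcium pump of the fast sarcoplasmic reticulum, ran from 14.9 to 286.6 CPM and from 1215 to 7688 CPM. In each of these genes the highest low library was library 12. Mybpc2, named here after its values were seen, was the exception in size: this myosin binding protein gene was at 329.2 ± 143.7 CPM in the low class already and at 788.7 ± 221.0 CPM in the high class, a log2 fold change of 1.25 (SE 0.264).

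Sarcomere genes used by all fibres followed in the same way, with 16 of 16 called higher and a median of 5.47. Acta1, skeletal actin, ran from 32.5 to 542.4 CPM in the low class (median 75.6 CPM) and from 2180 to 15560 CPM in the high class (median 4943 CPM). Its log2 fold change was 5.52 (SE 0.656). Classes formed from Acta1 in place of Ckm held the same libraries. For Tpm2, a tropomyosin, the estimate was 4.60 (SE 0.494), and for Myom2, a protein of the M-line that ties myosin filaments together, it was 5.39 (SE 0.593). Tcap, the titin cap, was at no more than 0.185 CPM in the low class and at 1.39 to 8.84 CPM in the high class. Rows for titin, nebulin and obscurin were not analysed here.

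Genes that couple the nerve's signal to calcium release were higher too, 13 of 14 called with a median of 4.86. Cacna1s, the voltage sensor of the muscle membrane, ran from 1.47 to 18.5 CPM in the low class and from 75.5 to 520.5 CPM in the high class. Hrc, a calcium binder of the reticulum, ran from 0.981 to 7.22 CPM and from 34.3 to 285.5 CPM. Jph2, which holds the reticulum close to the surface membrane, had a log2 fold change of 4.16 (SE 0.444). Sln, the small inhibitor of the calcium pump, was the member not called: it had a median of 0.598 CPM in the high class but 33.4 CPM in library 24 and 12.6 CPM in library 6.

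**Figure D2:**
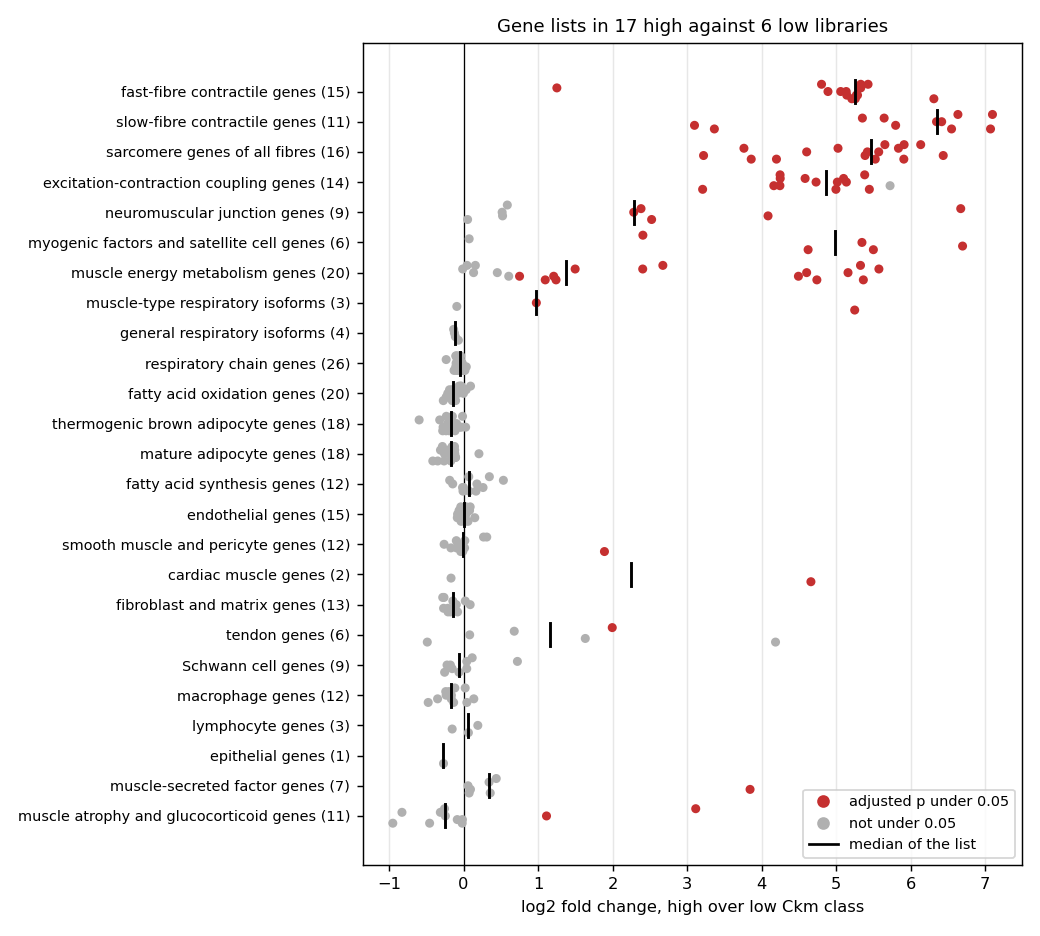
Log2 fold change of the high over the low class for each tested member of 25 gene lists, with the number tested in brackets; red points were called, grey points were not, and black bars are list medians. The muscle lists lie far to the right, with medians between 4.86 and 6.35 for the contractile, sarcomere and coupling lists, while the lists of adipocytes and other cell types lie around 0.

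Slow-fibre genes had the largest median of all lists, 6.35, with 11 of 11 called. Myh7, the slow myosin heavy chain, ran from 0.0 to 22.4 CPM in the low class (median 0.469 CPM) and from 24.6 to 2162 CPM in the high class (median 210.2 CPM), a log2 fold change of 7.10 (SE 1.19). Tnnt1, slow troponin T, ran from 0.201 to 3.89 CPM and from 6.88 to 536.9 CPM. Tnni1, slow troponin I, had a log2 fold change of 6.63 (SE 1.03), and Myl2, a slow light chain, one of 7.07 (SE 1.24). Neither overlapped between classes. Reads of the myosin heavy chain genes may be split between near-identical copies, so the levels of single Myh genes are uncertain.

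Muscle genes differed among themselves in how closely they kept to Ckm within the 17 high libraries. Per 1000 counts of Ckm, Actn3, the actinin of fast fibres, ranged from 426.0 to 532.6 counts, a spread of 1.25 times between the lowest and the highest library. The spread was 1.61 times for Myl11 and 1.80 times for Myh4. Genes with a low mean level in the high class, Sln and Tcap among them, were left out of these ratios. Over the 15 fast-fibre genes the median spread was 1.61 times. It was 1.94 times over 12 of the 14 coupling genes and 3.46 times, up to 8.26, over 15 of the 16 sarcomere genes. Among fast myosins the spread reached 3.33 times for Myh1 and 3.78 times for Myh2. Over the 11 slow-fibre genes it was 15.5 times, from 2.78 to 35.4. Myh7 ranged from 19.9 to 449.3 counts per 1000 of Ckm, and Csrp3, a stretch-linked protein of slow and stressed fibres, from 2.99 to 105.9. The ratio of slow-fibre genes to Ckm therefore varied more between libraries than that of fast-fibre genes.

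The same few libraries carried the slow-fibre excess. Myh7 per Ckm was highest in library 22 (449.3), library 6 (335.2) and library 24 (309.2), all from females, 1 sham and 2 PCB 52. Those 3 libraries were also the top 3 for Tnnt1, Tnni1, Tnnc1, Myl2 and Myl3. Across the 17 libraries the log2 ratio of Myh7 to Ckm correlated with that of Tnnt1 at r = 0.986 and with that of Myl3 at r = 0.956, and with those of the fast myosins Myh4, Myh1 and Myh2 at r = 0.0625, 0.234 and 0.589. These correlations share libraries and the Ckm denominator and are given as a description.

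Myh3, the embryonic myosin heavy chain, and Actc1, the actin of heart and developing muscle, were concentrated in a few high libraries. Myh3 was at 0.0 CPM in 4 of the 6 low libraries and at 0.200 and 0.925 CPM in the others. In the high class it had a median of 6.10 CPM but reached 195.1 CPM in library 24 and 117.1 CPM in library 6. Actc1 was highest in the same pair, with 63.6 CPM in library 6 and 50.8 CPM in library 24. Thbs4, a matrix protein of tendon and muscle, reached 101.2 CPM in library 24, 68.9 CPM in library 6 and 23.1 CPM in library 13, against 8.43 CPM or less in the other 14 high libraries. The log2 fold change of Myh3 was 7.11 (SE 1.72), with a standard error larger than that of Myh4. The log2 ratio of Myh3 to Ckm correlated with that of Myh7 to Ckm at r = 0.842 over the 17 high libraries.

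**Figure D3:**
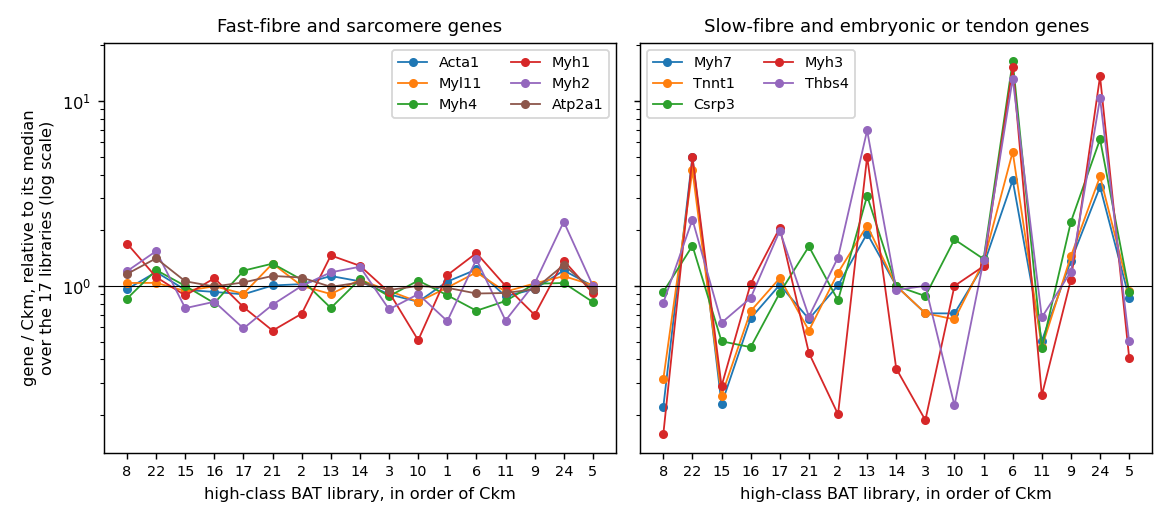
Level of each gene divided by Ckm in the same library, relative to the median of that ratio over the 17 high libraries, on a log scale; libraries are ordered by Ckm. Acta1, Myl11, Myh4 and Atp2a1 stay near 1 and Myh1 and Myh2 spread by 3.33 and 3.78 times, whereas Myh7, Tnnt1, Csrp3, Myh3 and Thbs4 spread by 20.8 to 96.9 times, with their 3 highest ratios in libraries 22, 6 and 24 or in 6, 24 and 13. The 96.9 times of Myh3 is uncertain. Its lowest ratio came from library 8, at 0.401 CPM, where 3 counts stand for 0.601 CPM.

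The regulators of muscle identity were measurable in the high class. Of 6 tested genes of the myogenic list 5 were called higher, with a median of 4.98, and without library 24 the count was 4 of 6. Myod1, the master regulator of the muscle lineage, was at 0.0 CPM in 5 of 6 low libraries and at 0.155 CPM in the sixth, and ran from 1.40 to 11.7 CPM in the high class. Myog, which drives muscle differentiation, ran from 0.0 to 0.370 CPM and from 0.601 to 15.9 CPM. Pax7 and Myf5, which mark satellite cells, the stem cells of muscle, had 0 counts in all 6 low libraries and too few counts for a test. Pax7 reached at most 0.983 CPM in the high class, at least 3.05-fold above the floor of 3 counts over the low class when libraries are pooled.

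At the neuromuscular junction 5 of 9 tested genes were called higher, with a median of 2.28. Chrnd, the delta subunit of the acetylcholine receptor, had no counts in any low library and reached 11.8 CPM in the high class, at least 23.2-fold above the floor of 3 counts over the low class. Ache, the esterase that clears acetylcholine, ran from 0.930 to 3.07 CPM and from 6.01 to 34.2 CPM. Rapsn, which clusters the receptor, had a log2 fold change of 2.38 (SE 0.474). Chrna1, the alpha subunit, was not called (0.52, SE 0.606), with 4.34 CPM in low library 23. Without library 24 the count was 4 of 8 and the list median 1.25.

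Of the secreted factors attributed to muscle, 1 of 7 tested was called. Mstn, myostatin, ran from 0.0 to 0.327 CPM in the low class and from 0.348 to 5.05 CPM in the high class. Fndc5, the precursor of irisin, was at 27.0 to 105.0 CPM and 45.6 to 120.2 CPM, with overlapping classes and a log2 fold change of 0.09 (SE 0.250). Il15 (0.44, SE 0.245) and Igf2 (0.34, SE 0.122) were not called. Of the list of muscle atrophy and glucocorticoid genes, the ubiquitin ligases Trim63 (3.12, SE 0.449) and Fbxo32 (1.11, SE 0.275), which muscle uses to degrade its own protein, were called higher. The other 9 members were not called, among them Tsc22d3 at -0.46 (SE 0.176) and Cdkn1a at -0.95 (SE 0.332).

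Genes of muscle energy metabolism differed among themselves in size. Of 20 tested members of the muscle energy list 14 were called higher, with a median of 1.37, and 13 of 20 without library 24. Pygm, muscle glycogen phosphorylase, ran from 8.34 to 105.6 CPM in the low class and from 385.8 to 2506 CPM in the high class, a log2 fold change of 5.16 (SE 0.590). Ampd1, the AMP deaminase of muscle, stood at 5.57 (SE 0.578), and Ckmt2, the mitochondrial creatine kinase, at 5.33 (SE 0.617). Pfkm, muscle phosphofructokinase, was at 213.6 ± 53.1 CPM in the low class and at 494.1 ± 140.1 CPM in the high class (1.21, SE 0.215). Mb, myoglobin, ran from 85.7 to 481.2 CPM and from 227.4 to 1003 CPM, so that its classes overlapped although it was called (1.24, SE 0.306). Hk2 (-0.01), Ldha (0.05) and Slc2a4, the insulin-regulated glucose carrier (0.16), were not called.

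The muscle forms of respiratory proteins differed from one another. Cox6a2 ran from 0.164 to 8.14 CPM in the low class and from 26.2 to 228.1 CPM in the high class, a log2 fold change of 5.25 (SE 0.627). Slc25a4 ran from 246.4 to 336.7 CPM and from 415.5 to 974.1 CPM, also without overlap, a log2 fold change of 0.98 (SE 0.191). Its mean in the high class, 582.0 ± 178.8 CPM, exceeded that of the low class, 296.5 ± 32.3 CPM, by 49.0% of the high-class mean, against 97.3% for Cox6a2. Cox8b, the oxidase subunit shared by brown fat and striated muscle, ran from 155.2 to 456.4 CPM and from 64.3 to 414.9 CPM, and its log2 fold change was -0.09 (SE 0.277). A row for Cox7a1 was not analysed here. The general forms Cox6a1, Cox7a2, Cox8a and Slc25a5 were not called, with a median of -0.12.

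No gene of the lists of respiratory chain and fatty acid oxidation was called. Of 26 respiratory chain genes 0 were called either way, with a median of -0.05, where 3.1% of all genes were called higher, and of 20 fatty acid oxidation genes 0 were called, with a median of -0.14. For lists this short, 0 calls is near that background. Without library 24 the medians were 0.04 and -0.04. The largest size among respiratory chain genes was -0.23 (SE 0.234) for Cycs, cytochrome c. Cpt1b, the muscle and brown fat form of the enzyme that admits fatty acids to mitochondria, ran from 685.9 to 1683 CPM in the low class and from 147.8 to 1705 CPM in the high class (-0.05, SE 0.312). Fabp3, a fatty acid carrier of heart and muscle, stood at -0.04 (SE 0.374). In both genes the lowest high library was library 24.

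Brown and general adipocyte genes were close to 0 and called in neither direction. Of 18 tested thermogenic genes 17 lay below 0, with a median of -0.17, and of 18 mature adipocyte genes 17 lay below 0, with a median of -0.16, where 58.1% of all genes tested lay below 0 and 3.1% were called higher. With 18 genes per list, 0 calls is near that 3.1%. Without library 24, 11 of the 18 thermogenic and 17 of the 18 mature adipocyte genes lay below 0. Ucp1 had means of 5547 ± 1858 CPM in the high class and 6420 ± 2826 CPM in the low class, and its log2 fold change moved from -0.27 (SE 0.427) to -0.15 without library 24. Cidea, a lipid droplet protein of brown fat, stood at -0.21 (SE 0.389), and Dio2, which activates thyroid hormone, at -0.60 (SE 0.530). Adipoq, adiponectin, ran from 2011 to 3825 CPM and from 1656 to 3255 CPM (-0.15, SE 0.137), and Fasn, fatty acid synthase, from 7382 to 19700 CPM and from 5946 to 18420 CPM (0.07, SE 0.242). The ranges of the classes overlapped for each of these genes.

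**Figure D4:**
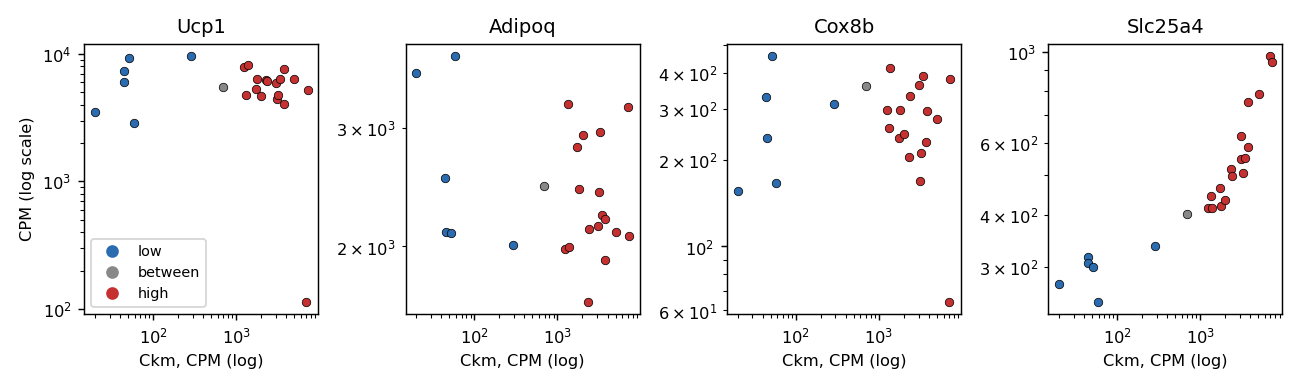
Ucp1, Adipoq, Cox8b and Slc25a4 against Ckm in the 24 BAT libraries, in CPM with log axes on their own ranges; colour gives the class. Slc25a4 climbs with Ckm from 246.4 to 974.1 CPM, whereas Ucp1, Adipoq and Cox8b overlap between classes; library 24 is the low point for Ucp1 and Cox8b.

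Lists of other cell types of the depot had medians near 0 in the fit of all high and low libraries. Of 15 endothelial, 13 fibroblast and matrix, 12 macrophage, 9 Schwann cell and 3 lymphocyte genes 0 were called, with medians of 0.00, -0.14, -0.16, -0.06 and 0.07. As 3.1% of all genes were called higher and 0.0357% lower, 0 calls in lists this short is near the background. Among 12 smooth muscle genes only Synm was called, at 1.89 (SE 0.341). It encodes synemin, an intermediate filament protein that skeletal muscle also uses. Acta2, Myh11 and Tagln, the defining contractile genes of smooth muscle, stood at -0.01, -0.04 and 0.01. Without library 24 all 13 fibroblast and matrix genes and all 12 macrophage genes lay below 0, with medians of -0.28 and -0.33. In that fit 0 genes of either list were called, and 6260 of 11132 genes tested lay below 0. The endothelial, Schwann cell and lymphocyte medians were 0.04, -0.09 and -0.03 there. Leaving out library 4 instead gave fibroblast and macrophage medians of 0.06 and 0.02.

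Tendon and heart were checked because both lists overlap with skeletal muscle. Of 6 tested tendon genes, Scx, the tendon transcription factor, was called: it ran from 0.401 to 2.04 CPM in the low class and from 1.22 to 9.97 CPM in the high class (2.00, SE 0.391), with overlap. Thbs4 was not called (4.19, SE 1.19). Tnmd, tenomodulin, had too few counts for a test. Of 2 tested cardiac genes, Myh6 was called (4.66, SE 0.846), from 0.192 to 2.96 CPM in the low class to 2.02 to 108.8 CPM in the high class. Myh6 is nearly identical to its neighbour Myh7, so its counts are uncertain, and its 2 highest libraries, 24 and 6, were among those with the highest Myh7. The atrial hormone gene Nppa was at 0 in 23 of 24 BAT libraries and at 0.407 CPM in the other. Tnnt2, cardiac troponin T, was at most 10.5 CPM, in library 24. Whether tissue other than skeletal muscle contributed was not tested.

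The 4 genes called lower were small in effect or low in level. Dhrs7l1, a dehydrogenase-like gene, ran from 0.200 to 8.67 CPM in the low class and from 0.0 to 3.79 CPM in the high class, a log2 fold change of -1.93 (SE 0.485). In the low class the females stood at 4.98 to 8.67 CPM and the males at 0.200 and 0.465 CPM. High-class females ran from 0.0 to 3.79 CPM, and high-class males were at 0.256 CPM or less, near the floor. Atosa ran from 64.3 to 289.1 CPM and from 64.6 to 138.7 CPM (-0.66, SE 0.172). Lamp2, a lysosomal membrane protein, stood at -0.24 (SE 0.0625), and Ube4a, a ubiquitin ligase, at -0.19 (SE 0.0490). In all 4 the ranges of the classes overlapped. Leaving out 1 library at a time gave between 1 and 10 genes called lower.

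Of the 348 higher genes, 87 were on the 25 lists and 261, Ckm among them, on none. The lists hold only a small part of the 11212 genes tested, so the 261 are no excess of calls outside them. The largest log2 fold changes included Hspb3 (7.49, SE 1.04), a small heat shock protein of muscle that had no counts in the low class and at least 43.4 times the floor of 3 counts in the pooled high class. Tceal5 and Ros1 likewise had no counts in the low class, with at least 44.0-fold and 21.9-fold. The largest estimate belonged to RT1-CE16, a class I histocompatibility gene, at 8.27 (SE 2.21). It was at 23.2 to 49.0 CPM in 9 high libraries and at 0.202 CPM or less in the 15 other BAT libraries, the low class included. Of the 17 high libraries, 8 were thus at or near 0, which set it apart from Ckm-like genes such as Actn3.

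The following genes of no list were chosen after their values were seen, as were those named above or below that neither head their list nor belong to the naming rule: Csrp3, Hk2, Ldha, Slc2a4, Pfkm, Tnnc1, Cox6a1, Slc25a5, Acta2, Myh11, Tagln, Tnmd and Plekhf1. H19, an imprinted noncoding RNA, ran from 69.5 to 223.6 CPM in the low class (median 120.9 CPM) and from 299.9 to 2314 CPM in the high class (median 765.6 CPM), a log2 fold change of 2.76 (SE 0.374). Des, desmin, the intermediate filament protein of muscle, stood at 4.40 (SE 0.513), and Aqp4, the water channel of fast fibres, at 5.97 (SE 0.627). The homeobox genes Pitx1, which specifies hindlimb and other structures, and Lbx1, a gene of migrating muscle precursors, were at 6.26 (SE 0.690) and 4.47 (SE 0.735). Genes that the low class also expressed well moved less: Fhl1, a LIM protein of muscle, from 218.3 ± 42.7 to 670.8 ± 504.5 CPM, and Selenow, a selenoprotein, from 133.7 ± 48.1 to 319.7 ± 155.5 CPM. In all, 174 of the 348 genes differed by 10-fold or more between class means and 56 by less than 2-fold.

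The genes whose log2 CPM followed Ckm most closely over all 24 BAT libraries were Actn3, Myoz1, Pygm, Atp2a1, Acta1, Myl11, Hjv, Tnni2, Cacna1s and Myl1, with Pearson r between 0.996 and 0.999. Of these, 9 are structural, calcium-handling or glycogen genes of fast or all fibres. The other, Hjv, encodes hemojuvelin, a regulator of iron metabolism made by liver and skeletal muscle, and ran from 0.491 to 12.6 CPM in the low class and from 50.3 to 382.6 CPM in the high class. The points share libraries, and total counts enter both values, so r is a description over these 24 libraries.

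The comparison of treatments, the study's own question, was made with and without a term for muscle. Without a term for muscle, PCB 52 against sham with even or odd number as a term called 1 of 10891 genes, 0.00918%: Plekhf1, an endosomal protein gene, at -0.41 (SE 0.0704, edgeR quasi-likelihood test, adjusted p = 0.0479). With log2 Ckm as a further term 0 of 11205 genes were called (0.0%), 1185 of them at an unadjusted p under 0.05, and Plekhf1 stood at -0.42 (SE 0.0724, adjusted p = 0.0695). Of the 348 genes that follow Ckm, 334 were tested without the term, of which 12 lay above 0, with a median PCB 52 over sham log2 fold change of -0.37. With the term 347 were tested, 158 lay above 0 and the median was -0.03. With the class in place of log2 Ckm, over the high and low libraries, 22 of 348 lay above 0 and the median was -0.35, against -0.30 without a term in the same libraries. The shift was thus near 0 under the graded term and not under the class term. As the 348 genes were chosen in these libraries for following Ckm, the former was largely fixed in advance. It is given as a description. Acta1 stood at -0.55 without and -0.03 with the term, and Ucp1 at -0.28 and -0.34. Ckm medians in the high class were 1904 CPM for PCB 52 and 3422 CPM for sham. Without library 24, 3 genes were called without and 0 with the muscle term (1099 at an unadjusted p under 0.05, edgeR), and the median of the 334 genes without the term was -0.82, with 4 above 0.

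No correlation of Ckm between BAT and the other depots of the same title number was detected. Over 23 numbers, log2 Ckm in BAT and SAT had Pearson r = -0.133 (permutation p = 0.544, adjusted 0.994) and Spearman rho = -0.198 (permutation p = 0.367, adjusted 0.518). Without the 2 libraries farthest from the BAT median, r was 0.0469. Over the 23 numbers with BAT and VAT, r was -0.00223 (permutation p = 0.994, adjusted 0.994) and rho -0.142 (permutation p = 0.518, adjusted 0.518), with r = -0.00319 without the 2 farthest. Adjustment was over these 2 relations. In VAT, Ckm had a median of 0.135 CPM and exceeded 0.642 CPM only in female sham library 8, at 171.3 CPM. As the other VAT libraries lay near the floor, the VAT correlations cannot decide whether Ckm is related between BAT and VAT.

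SAT libraries, which the BAT classes did not use, offered the same sorting in white fat. The same limits gave 5 high SAT libraries, at 1395, 1503, 2889, 3567 and 4231 CPM of Ckm, 14 low ones and 4 between. Only 1 high SAT library came from PCB 52, library 18. In the high class, 182 of 12376 genes were called higher (1.47%) and 1 lower (0.00808%), again as a description. Of the 348 genes higher in BAT, 341 were tested in SAT, 310 lay above 0 there and 165 were called higher, which is 47.4% of the BAT genes and 90.7% of the SAT genes. Without library 18 the SAT fit called 6 higher and 0 lower. SAT library 8 stands apart: its Acta1 was at 490.2 CPM beside a Ckm of 4231 CPM, whereas in the other 4 high libraries Acta1 ran from 2385 to 6813 CPM. It also had counts for only 11108 genes, against 13042 to 13654 in the other SAT libraries, at a total of 7393581 counts. Without library 8, 228 genes were called higher and 3 lower.

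The difference between high and low classes was smaller in BAT than in SAT for 4 genes, and these and the 8 that follow were chosen after their values were seen, Cox8b apart. Cox8b stood at 22.2, 18.9, 10.9, 9.31 and 5.95 CPM in the 5 high SAT libraries and at 0.0 to 4.02 CPM in the 14 low ones. Its SAT log2 fold change of 4.14 (SE 0.870) compares with -0.09 in BAT, a difference of -4.39 (SE 0.686, edgeR quasi-likelihood interaction test added after the data were seen, adjusted p = 0.000690). Perm1, a regulator of muscle mitochondria, differed by -2.65 (SE 0.410, adjusted p = 0.000690), Tuba8, a tubulin, by -3.09 (SE 0.465, adjusted p = 0.000690), and Ppp1r3c, a glycogen-targeting subunit, by -2.62 (SE 0.468, adjusted p = 0.00557). All 4 were well expressed in low BAT libraries, with medians of 274.4, 92.7, 51.9 and 216.9 CPM. The share of genes with a smaller effect in BAT was 0.032% of 12508 tested, and 8 genes (0.064%) had a larger one.

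Those 8 genes were Itgb6, Sptb, Wnk2, Sema6c, Sh3rf2, Cand2, Tp63 and Slc38a4. Several of them were expressed in the low SAT libraries: Tp63, a transcription factor of epithelia, had a median of 20.4 CPM there and 0.0 CPM in the low BAT libraries, and Wnk2, a kinase, 45.8 CPM and 0.629 CPM. Sh3rf2 had a median of only 0.661 CPM there. Tp63 had too few counts for a fit in BAT alone and entered the joint fit through SAT. Its pooled level in the high BAT class was at least 11.4-fold above the floor of 3 counts over the low class, and its fitted difference is no bound. What these levels in SAT contribute to the differences was not tested. With the title number as a block, which the labels do not say marks one rat, 0 genes were called in either direction, and the adjusted p of Cox8b was 0.69. Without SAT library 18 that of Cox8b was 0.0501.

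**Figure D5:**
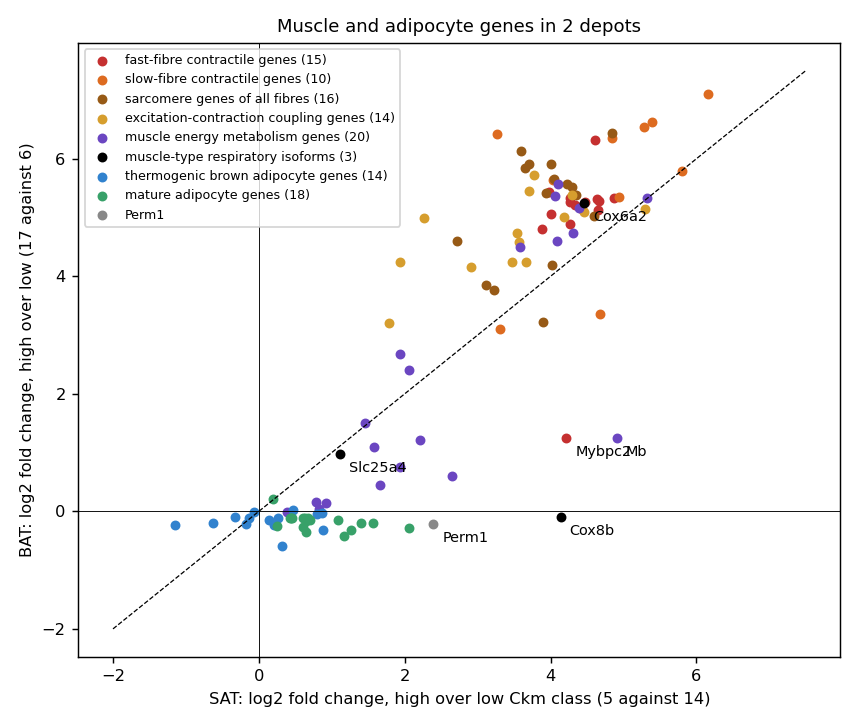
Log2 fold change of the high over the low Ckm class in BAT (vertical) against SAT (horizontal) for tested genes of 8 lists and Perm1, with the number of genes in brackets; the dashed line marks equal values. Contractile, sarcomere and coupling genes are high in both depots, while Cox8b (-0.09 in BAT, 4.14 in SAT), Perm1, Mb and Mybpc2 lie far below the line.

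Further genes of muscle were compared between the depots in the same way. Mb stood at 1.24 in BAT and 4.91 in SAT, and Mybpc2 at 1.25 and 4.22 (interaction adjusted p = 0.0927 and 0.201, edgeR). Slc25a4 stood at 0.98 and 1.12 and Cox6a2 at 5.25 and 4.46 (interaction adjusted p = 0.865 and 0.820, edgeR). Of these and Cox8b, Cox8b alone passed the interaction test.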

How the data were processed

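RNA-seq was made from 3 fat depots of rats. The authors deposited 6 gene tables, 1 per sex and depot, of raw counts, and the female VAT table, deposited with 5 further spreadsheet lines (totals, their mean, ratios and a repeated gene), not all of them whole numbers, was recorded under the unit expected counts, with those lines left out and its gene rows whole. Each table holds 15319 genes, of which 15230 were matched to a symbol. FastQC, HISAT2 and the rn6 build are named per the submitters' processing notes; the sources used here name no counting tool, strand setting or RNA selection, so reads of overlapping genes cannot be told apart by strand.

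CPM is the count over the column total. Classes were set at 1000 and 300 CPM of Ckm. Fits used edgeR 4.0.16 (TMM, its expression filter, robust quasi-likelihood test, Benjamini-Hochberg adjustment, threshold 0.05) in R 4.3.3 with even or odd number and treatment as terms. DESeq2 1.42.0 and limma 3.58.1 gave alternatives. SAT was sorted by the same limits and fitted alike. The even-numbered and odd-numbered libraries were deposited in separate tables, and number parity is a term in the main fits. Scripts were tested on simulated data. Of 60 pairs of libraries of one group, 0 differed by less than the sampling noise. Same-numbered BAT and SAT libraries had a median correlation of deviations of 0.0729 over 19 pairs.

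The members and gene lists were chosen with earlier results of these data known. Named genes were the largest fold changes each way among called genes, the first 4 of each list by p, a fixed set, and the 10 closest to Ckm by r. Promoters came from the RefSeq table of GRCr8. No genome of the rn6 build was used here. One gene of the lists is not reported here by name.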

Additional observations from a re-analysis of the deposited data

Results flagged for a closer look

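Within the low class, 45 sets of values were examined for a library far from the others, and 5 were found. Among independent sets chance gives about 1 in 20. These sets share libraries and several follow Ckm, so the 5 cannot be weighed against that rate. Library 12, which has the highest Ckm of its class, stood above the other 5 for the summed level of slow-fibre genes (92.32 CPM), sarcomere genes (874.1 CPM) and coupling genes (82.51 CPM) and for Myl11 (108.4 CPM). Genes of these sets follow Ckm, which chose the classes, so these gaps are no separate result. Library 23 stood apart for Dio2, at 50.21 CPM.

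The log2 difference between classes differed between BAT and SAT for 12 genes (edgeR interaction test, adjusted p under 0.05). It was larger in BAT for Itgb6 (5.527), Wnk2 (5.303), Sh3rf2 (4.41), Sptb (4.406), Slc38a4 (3.715), Cand2 (2.789) and Sema6c (2.165). Tp63 (6.988) was called as well, but it had 0 counts in the low BAT class and too few for a fit in BAT alone, so this value depends on the fit and is no bound. It was smaller in BAT for Cox8b (-4.391), Tuba8 (-3.087), Perm1 (-2.652) and Ppp1r3c (-2.619). With the title number as a block 0 of the genes tested were called, so these calls rest on the fit without it.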

How the results depend on the processing

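Genes called higher numbered 164 in PCB 52 libraries alone, 181 in even-numbered, 216 in sham and 237 in odd-numbered ones, and 307 to 374 when 1 library was left out. They numbered 479 with log2 Ckm as a continuous term, 429 with at least 2000 CPM, 426 with DESeq2 and 297 with limma. Genes called lower numbered 12 with DESeq2, 10 with log2 Ckm as a continuous term, 7 with at least 2000 CPM, 7 without covariates, 2 with TMM computed without the muscle genes, 2 in PCB 52 alone, 1 each in sham alone, in odd numbers alone and without normalization factors, 0 in even numbers alone (678 genes at an unadjusted p under 0.05, edgeR), and 1 to 10 with 1 library left out. Without a muscle term, PCB 52 calls numbered 0 over high and low libraries, 0 without the muscle genes (1179 and 1217 at an unadjusted p under 0.05, edgeR) and 3 without library 24. SAT calls ran from 6 to 228 higher and 0 to 3 lower with 1 library left out. With the title number as a replicate block, 0 genes were called higher in BAT than in SAT and 0 lower (838 at an unadjusted p under 0.05, edgeR). The pairing was checked over 19 pairs: 6 correlated above 0.1 and 0 libraries correlated best with their own number. BAT numbers occur once, so the comparison of classes has no block.

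List medians moved as follows: sarcomere genes 6.39 in PCB 52 alone; junction genes 1.82 in even, 1.57 in odd and 1.35 in sham alone, and 1.25 to 2.50 with 1 library left out; myogenic genes 5.71 with low under 100 CPM, 5.80 in odd alone and 4.64 to 5.71 with 1 left out; cardiac genes 4.69 in PCB 52 alone, 5.13 in odd alone and 2.08 to 4.78 with 1 left out; smooth muscle genes 0.22 and atrophy genes 0.17 in odd alone. The correlation of Ckm in BAT and VAT was 0.00448 without library 24. The cause was not tested. For 142 single BAT genes 5521 alternative values were computed, of which 5406 moved by less than the spread between libraries and 115 by more. In 97 values, from 44 genes, the sign differed from that reported, and 0 of these genes were among those called. The low class holds 6 libraries, which limits precision.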
